A study of Rattus norvegicus with 6 samples.

Results

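Creg1, Gltpd2 and Khk are 3 protein-coding genes, picked by symbol from the 32623 genes of a rat expression table, because their transcripts were scarce in the control libraries and among the most abundant in the knockdown libraries. The samples were cultured nucleus pulposus cells, which fill the soft centre of each intervertebral disc. They came from the lumbar spine of male Sprague-Dawley rats, 4 weeks old, and were used at passages 3 to 5. In the shNC group (3 libraries) they carried a lentivirus with a negative control hairpin RNA for 72 hours, and in the shBmal1 group (3 libraries) a lentivirus with a hairpin against Bmal1, the partner of CLOCK in the circadian transcription factor. No untransduced cells are among the samples, and the labels do not say whether libraries came from separate cultures, so the spread between libraries may be technical. The table also annotates 16 other genes within 50 kb of these 3, and they are described with them.

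The 3 genes belong to unrelated processes. Creg1 encodes cellular repressor of E1A-stimulated genes 1, a small secreted and lysosomal glycoprotein that binds the mannose 6-phosphate receptor IGF2R and was named for opposing transcription driven by the adenoviral protein E1A. Gltpd2 encodes glycolipid transfer protein domain containing 2, a member of the family of lipid carriers that move sphingolipids between membranes through the cytosol. Khk encodes ketohexokinase, also called fructokinase, which phosphorylates fructose to fructose 1-phosphate in the first step of fructose breakdown and is best known from liver, kidney and intestine. The values here are per gene, so the alternatively spliced forms of ketohexokinase are not separated.

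Their annotations share almost nothing. Creg1 (ENSRNOG00000003291) lies on chromosome 13 from 83972212 to 83984675 on the forward strand, Gltpd2 (ENSRNOG00000026488) on chromosome 10 from 57125961 to 57128686 on the forward strand, and Khk (ENSRNOG00000008047) on chromosome 6 from 26810579 to 26820959 on the reverse strand. These are the authors' deposited coordinates, on a genome build not given in the sources used here. Of 6 Gene Ontology terms listed for Creg1, 11 for Gltpd2 and 19 for Khk, the term cytoplasm was the one shared by any pair, Gltpd2 and Khk. Gltpd2 carries terms for ceramide 1-phosphate binding and transfer, and Khk is the one of the 3 with a KEGG pathway, fructose and mannose metabolism.

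The sequence just before the start site is shown for the pair of genes found in the RefSeq promoter table for build GRCr8, because the 3 transcripts were high in the same libraries. Each line gives the 250 bases that end at the start site, 5′ to 3′ on the gene's strand. Capitals mark matches to CCAAT (or its reverse complement) and to the GC box GGGCGG, which do not overlap each other.
Creg1: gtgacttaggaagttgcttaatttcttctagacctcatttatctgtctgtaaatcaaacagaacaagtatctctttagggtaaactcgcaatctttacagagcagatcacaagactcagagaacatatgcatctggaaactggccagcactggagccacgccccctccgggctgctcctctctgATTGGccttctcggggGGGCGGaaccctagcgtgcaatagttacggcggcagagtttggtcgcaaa
Khk: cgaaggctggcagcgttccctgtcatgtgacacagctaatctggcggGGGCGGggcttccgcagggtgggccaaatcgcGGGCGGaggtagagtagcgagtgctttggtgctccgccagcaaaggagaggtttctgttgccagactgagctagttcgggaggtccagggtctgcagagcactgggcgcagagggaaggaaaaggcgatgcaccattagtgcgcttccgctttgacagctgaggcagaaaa
The Creg1 window is chr13:80552571-80552820, forward strand, and the Khk window is chr6:31175482-31175731, reverse strand, both in GRCr8. RefSeq's span of each gene begins before this start site, by 42 bases for Creg1 and by 298 bases for Khk, so the windows overlap transcript models that start further upstream.

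Both windows held the GC box, once in Creg1 at 50 to 45 bases before the start site and at 2 places in Khk. The Creg1 window also held a CCAAT match on the opposite strand, 66 to 62 bases before the start site. Over 33469 promoters of the same length, searched on both strands, 30.5% held GGGCGG and 34.0% held CCAAT. Neither window held the letters CACGTG of the E-box that CLOCK and BMAL1 bind (5.59% of promoters), TGACTCA of AP-1 (4.05%) or TATAAA (12.9%). GC content was 49.2% in the Creg1 window and 60.4% in the Khk window, against a median of 51.2% over promoters. These matches describe the letters in the window and nothing about binding.

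The libraries differed in depth in the same way as in group. The shNC libraries held 44043803 to 49783710 counts each and the shBmal1 libraries 8773762 to 11679587. For a gene with no count the limit taken, 3 counts, therefore equals 0.0637 to 0.0712 CPM (counts scaled to the effective library size) in shNC but 0.245 to 0.323 CPM in shBmal1. Bmal1 itself, listed as Arntl, fell from 29.6 ± 2.14 to 2.82 ± 1.23 CPM (SD, n = 3; adjusted p = 1.17e-05, edgeR's quasi-likelihood test). Of 20 nucleus pulposus markers, Pax1 (527 CPM in shNC, 84.9 CPM in shBmal1) and Acan, the aggrecan gene (648 and 32.8 CPM), were well expressed in the control cells and fell, while Tbxt and Shh, genes of notochordal cells, had no count in any library. Of the 17 markers tested, 5 rose (Tek, Ca3, Foxf1, Slc2a1 and Hif1a), 6 fell and 6 did not pass, with a median log2 fold change of 0.03. Of 14342 genes tested, 71.3% differed between the groups at an adjusted p under 0.05, 36.0% being higher and 35.3% lower in shBmal1.

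Creg1 went from a trace in the control cells to one of the most abundant transcripts in the knockdown cells. In shNC replicates 1 to 3 the authors' FPKM, in which fragments are scaled by gene length and library size, read 0.606, 0.692 and 0.840 (63, 75 and 81 counts). In shBmal1 replicates 1 to 3 it read 1945, 2055 and 1958 (38429, 53533 and 49552 counts). The groups did not overlap, and the lowest shBmal1 library was 2314-fold above the highest shNC library. Scaled counts were 1.64 ± 0.26 CPM in shNC and 4204 ± 144 CPM in shBmal1 (SD, n = 3), a log2 fold change of 11.32 ± 0.13 (SE). This difference chose the gene, so it is given as a description, without a p-value, and the same holds for Gltpd2 and Khk.

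Gltpd2 showed the largest ratio of the 3. The control libraries gave an FPKM of 0.203, 0.375 and 0.647 (25, 47 and 72 counts). The knockdown libraries gave 1849, 1598 and 1504 (42433, 48309 and 44195 counts). Every shBmal1 library was far above every shNC library, by 2326-fold at the closest pair. In CPM it went from 1.09 ± 0.58 to 4058 ± 467 (SD, n = 3), a log2 fold change of 11.87 ± 0.36 (SE). Within shNC, replicate 3 was 3.19-fold above replicate 1.

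Khk had the smallest ratio and the widest spread. Across the shNC replicates its FPKM was 0.911, 0.943 and 2.52 (64, 69 and 164 counts), and across the shBmal1 replicates 1538, 1082 and 854 (20648, 19148 and 14688 counts). The groups were again separate, with a factor of 339 between the closest libraries, but shNC replicate 3 stood above the other controls and shBmal1 replicate 1 was 1.80-fold above shBmal1 replicate 3. Scaled counts were 2.27 ± 1.41 CPM in shNC and 1668 ± 513 CPM in shBmal1, a log2 fold change of 9.53 ± 0.49 (SE), or 741-fold. Without shNC replicate 3 the log2 fold change was 10.16, or 1145-fold.

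**Figure D1:**
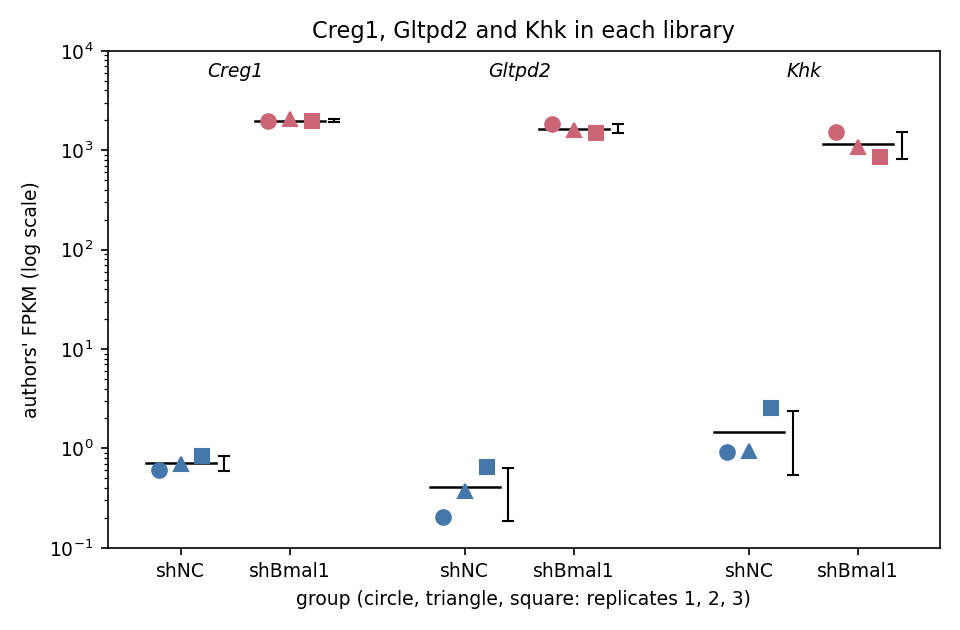
Authors' FPKM (log axis) of Creg1, Gltpd2 and Khk in the 3 shNC and 3 shBmal1 libraries. Points are libraries, horizontal lines are means and the bars beside them are 1 SD. No shNC value exceeds 2.52 and no shBmal1 value is under 854.

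The order of the 3 genes by length-scaled level (FPKM) differed between the groups. In each shNC library Khk was highest and Gltpd2 lowest, while in each shBmal1 library Creg1 was highest, Gltpd2 next and Khk lowest. In shBmal1 the Creg1 and Gltpd2 values did not overlap, whereas the highest Khk library (1538) exceeded the lowest Gltpd2 library (1504). In shNC, the lowest Khk value (0.911) lay above the highest Creg1 value (0.840), and Creg1 and Gltpd2 overlapped. The ratio of Creg1 to Khk FPKM lay between 0.333 and 0.734 in the control libraries and between 1.26 and 2.29 in the knockdown libraries. In shBmal1 the ratio of Gltpd2 to Creg1 was narrower, at 0.951, 0.777 and 0.768.

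The precision of these levels differed between groups and genes. In shBmal1 the coefficient of variation of FPKM over 3 libraries was 3.05% for Creg1, 10.8% for Gltpd2 and 30.1% for Khk. Counting error alone would give under 1% for each of them at these counts (0.460%, 0.472% and 0.742%). In shNC the coefficients were 16.6%, 54.8% and 63.1%, against 11.7%, 14.4% and 10.1% from counting error. Replicate 3 was the highest shNC library for all 3 genes. Replicate 1 was the highest shBmal1 library for Gltpd2 and Khk, and replicate 2 for Creg1.

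Summed, the 3 genes took 1.16%, 1.04% and 0.951% of all counts in the shBmal1 libraries and between 0.000319% and 0.000720% in the shNC libraries. Ranked by FPKM among all 32623 genes, Creg1 was at place 29 to 40 in shBmal1, Gltpd2 at 42 to 52 and Khk at 53 to 111. In shNC the best place of any of them was 9785, held by Khk in replicate 3. The raw counts summed over the shNC libraries came to 0.155% of those summed over shBmal1 for Creg1, 0.107% for Gltpd2 and 0.545% for Khk, although shNC had been sequenced more deeply.

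Large ratios alone were not rare in this comparison, but nearly all of them belonged to scarce transcripts. A fitted fold of at least 100 was reached by 4.10% of tested genes, and one of at least 500 by 197 genes, or 1.37%, and each of the 3 genes was among them by the choice described above. Of these 197, 12 had a mean of at least 100 CPM in shBmal1 and 4 a mean of at least 1000 CPM. Those 4 were Creg1, Gltpd2, Khk and LOC108348108, annotated as heat shock 70 kDa protein 1A, which was looked at after its value was seen. LOC108348108 went from 0.112 ± 0.039 to 2730 ± 892 CPM, and its reads may be split with Hspa1b, a near-identical copy. Among genes of at least 1000 CPM the next below Khk was Plk2, a kinase gene, at a log2 fold change of 5.73.

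By log2 fold change alone, Gltpd2 ranked 13, Creg1 27 and Khk 106 among the 14342 tested genes. Among the 1745 of them with a mean of at least 100 CPM in shBmal1 the places were 4, 6 and 11. The named genes in that range included Apoa2, an apolipoprotein gene with no count in shNC and 123 ± 10.8 CPM in shBmal1, at least 5473-fold higher if the shNC group is set to 3 counts in total. Fcgr1a, an immunoglobulin receptor gene, went from 0.069 ± 0.060 to 178 ± 26.0 CPM, and Nos3, the endothelial nitric oxide synthase gene, from 0.230 ± 0.056 to 235 ± 37.0 CPM. Mia reached 176 ± 19.6 CPM, Scarf1, a scavenger receptor gene, 187 ± 31.5 CPM, the small RNA gene Y_RNA 130 ± 26.9 CPM and Ciart, a clock repressor gene, 279 ± 8.20 CPM. Each of these was below the lowest Khk library in shBmal1.

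**Figure D2:**
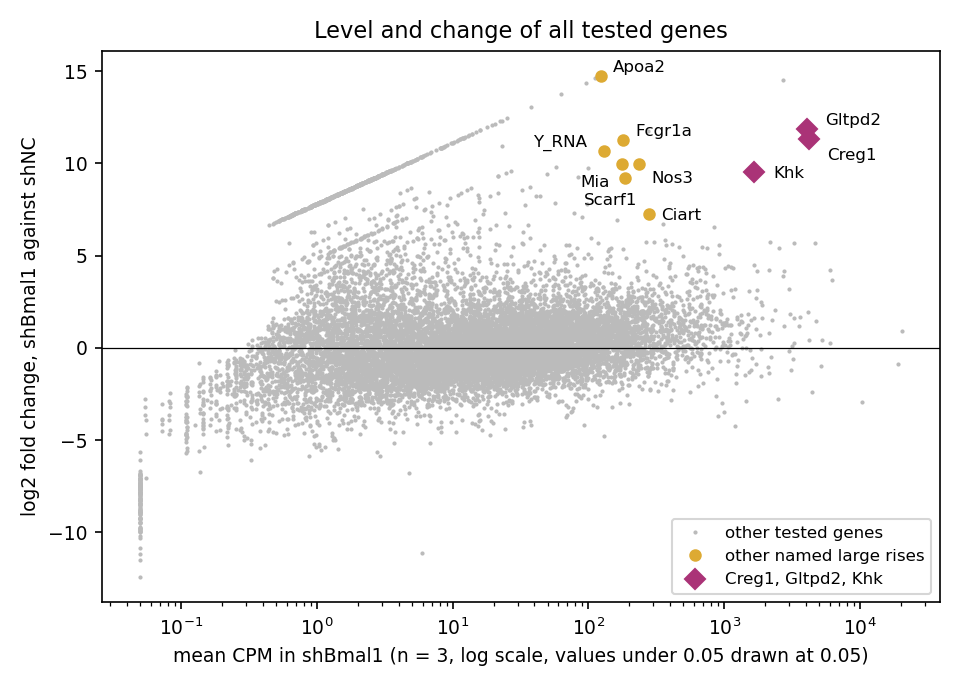
Log2 fold change (shBmal1 against shNC) against mean CPM in shBmal1 (log axis, n = 3) for the 14342 tested genes. The sloping line of points at upper left holds genes with no shNC count, whose fitted values are not bounds. Creg1, Gltpd2 and Khk (diamonds) lie at 4204, 4058 and 1668 CPM, to the right of the other labelled genes.

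The transcripts most like each of the 3, by Euclidean distance in log2(CPM + 1) over the 6 libraries, were the other 2. The distance was 0.786 between Creg1 and Gltpd2, 2.58 between Creg1 and Khk and 2.57 between Gltpd2 and Khk. The third nearest gene was in each case Fosl1, which encodes an AP-1 subunit, at 5.21 from Creg1, 5.58 from Gltpd2 and 3.42 from Khk. Fosl1 went from 9.03 ± 2.09 to 841 ± 45.9 CPM. The 3 genes had been chosen for this pattern, and with 2 groups the distance mostly measures the level in each.

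The genes around them did not share their change. Of the 16 annotated genes within 50 kb, 4 had no count in any library, 9 had enough counts to be tested, 2 rose and 5 fell (edgeR, adjusted p under 0.05), which is 7 of 9 against 71.3% of all tested genes. Their log2 fold changes ran from −2.85 to 0.86 with a median of −0.70, against −0.01 for all genes. The 5 that fell had groups that did not overlap, as had 39.1% of tested genes in that direction. With scaling by total counts only, which shifted the median of all genes by 0.16, 3 were higher and 4 lower.

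Around Creg1, 2 genes are annotated and neither could be tested. Cd247, which encodes the zeta chain of the T cell receptor complex and begins 11404 bases beyond the end of Creg1 on the same strand, had 4 counts in shBmal1 replicate 1 and no count in the other 5 libraries. A 5S_rRNA gene between them, 7381 bases from Creg1, had no count in any library. Cd247, the protein-coding gene annotated within 50 kb of Creg1, was thus not detectable in shBmal1 replicates 2 and 3, where 3 counts equal 0.245 and 0.248 CPM.

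Around Gltpd2, 5 genes are annotated. Psmb6, which encodes a catalytic subunit of the proteasome (chromosome 10, 57131386 to 57133637), begins 2699 bases beyond the end of Gltpd2 on the same strand. The shNC libraries had 48.2, 48.9 and 44.7 CPM of it, the shBmal1 libraries 76.6, 75.7 and 88.8 CPM. The groups did not overlap, as for 38.2% of tested genes in that direction, and Psmb6 rose by a log2 fold change of 0.77 ± 0.09 (SE; adjusted p = 0.000109, edgeR). Pld2, a phospholipase D gene 34487 bases away, fell from 25.5 ± 0.95 to 7.06 ± 1.19 CPM (log2 fold change −1.85, adjusted p = 1.69e-05, edgeR). Tm4sf5, Vmo1 and the noncoding gene AABR07029878 had no count in any library, the first 2 of them lying 7661 and 4376 bases upstream of Gltpd2.

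Around Khk, 9 genes are annotated, of which 7 were tested. Emilin1, which encodes a glycoprotein of elastic fibres (chromosome 6, 26821255 to 26828972, reverse strand), ends 295 bases upstream of Khk on the same strand. The shNC libraries held 307, 304 and 292 CPM of Emilin1, against 44.6, 46.5 and 33.9 CPM in shBmal1. It fell in the libraries in which Khk was high, with a log2 fold change of −2.85 ± 0.12 (SE; adjusted p = 4.24e-07, edgeR). On the other side Cgref1, a gene for a calcium-binding protein, lies 1449 bases from the 3′ end of Khk on the opposite strand. Its CPM of 95.3 ± 4.53 in shNC and 102 ± 13.0 in shBmal1 did not pass the test (log2 fold change 0.10 ± 0.10, SE; adjusted p = 0.409, edgeR).

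The more distant neighbours of Khk moved both ways by small amounts. Ost4, which encodes a subunit of the oligosaccharyltransferase of the endoplasmic reticulum, rose from 99.1 ± 5.37 to 180.1 ± 4.30 CPM (log2 fold change 0.86). Tmem214 fell from 152 ± 1.31 to 77.5 ± 9.86 CPM (−0.96), and Preb, a factor of protein export from the endoplasmic reticulum, from 32.3 ± 0.87 to 19.8 ± 3.02 CPM (−0.70). Abhd1, which overlaps Preb by 3787 bases on the opposite strand, did not pass the test (−0.12, adjusted p = 0.559, edgeR), and the sources used here do not say whether counting used strand. Agbl5, which encodes an enzyme that trims tubulin tails, passed narrowly (−0.78, adjusted p = 0.0355, edgeR). Its call was lost without shBmal1 replicate 2 or 3, and without any 1 of the shNC libraries (adjusted p = 0.0636, 0.0636, 0.114, 0.0771 and 0.0694, edgeR). It was also lost with total counts only (0.0789), with the replicate number as a block (0.0514) and on log2(FPKM + 0.1) with limma (0.0522). Prr30 and Tcf23 had 4 counts each over all libraries.

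**Figure D3:**
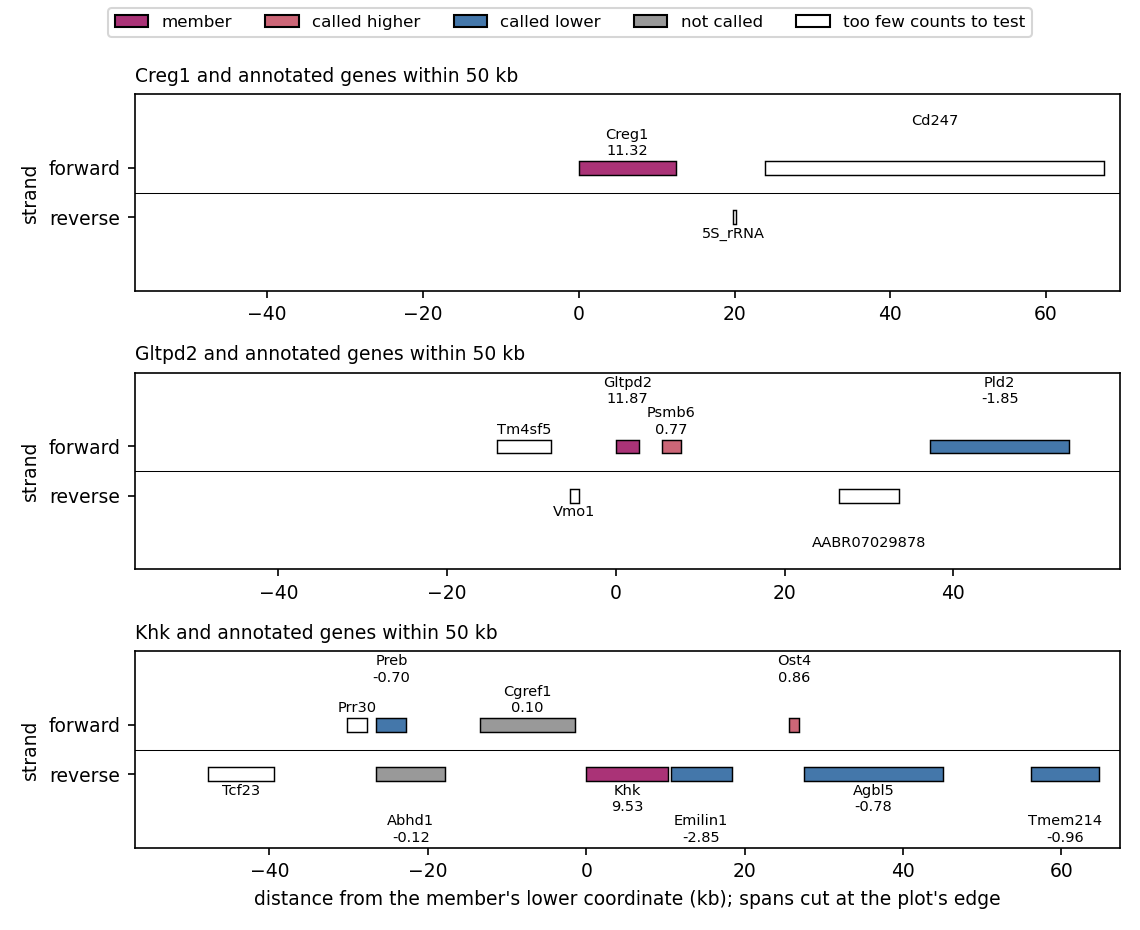
Annotated genes within 50 kb of Creg1, Gltpd2 and Khk by distance from the lower coordinate of each (kb), on the forward and reverse strand. Colours give the edgeR call and the numbers the log2 fold change. The tested neighbours run from −2.85 (Emilin1) to 0.86 (Ost4), beside 11.32, 11.87 and 9.53 for the 3 genes.

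Other genes of fructose metabolism did not move as Khk did. The fructose 1-phosphate made by ketohexokinase is cleaved, and the glyceraldehyde formed is phosphorylated by the product of Tkfc, while aldose reductase and sorbitol dehydrogenase make fructose from glucose. Of 31 listed genes beside Khk, 23 were tested, of which 6 rose, 9 fell and 8 did not pass, with a median log2 fold change of −0.58 against −0.01 for all genes. Together 15 of 23 were called, against 71.3% of all tested genes. With FPKM rescaled to TPM, which shifted the median of all genes by −0.33, 5 were higher and 13 lower.

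Of the genes of enzymes acting before and after ketohexokinase, Tkfc and Sord fell and Akr1b1 rose. Tkfc fell from 9.52 ± 1.74 to 1.66 ± 0.57 CPM (log2 fold change −2.53, adjusted p = 0.000173, edgeR). Akr1b1, the aldose reductase gene, rose from 86.0 ± 3.32 to 147 ± 7.95 CPM (0.78), and Sord, the sorbitol dehydrogenase gene, fell from 25.1 ± 2.02 to 16.5 ± 2.36 CPM (−0.61). The transporter genes Slc2a5 and Slc2a2 were scarce. Slc2a5 had 12 counts in shNC replicate 2 and Slc2a2 had 4 in shBmal1 replicate 3, with none in the other libraries. Slc2a8 and Slc2a9 of the same list were higher, at 15.2 and 6.21 CPM in shNC and 3.28 and 5.96 CPM in shBmal1. Slc2a9 did not pass the test.

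Within the same list the genes with the smallest p in each direction were not specific to fructose. Akr1b8, an aldo-keto reductase gene, went up from 47.0 ± 4.00 CPM to 556 ± 28.4 CPM (log2 fold change 3.57, adjusted p = 4.73e-08, edgeR), and Hk2, a hexokinase gene, from 38.2 ± 0.96 to 96.6 ± 1.73 CPM (1.34). Gfpt1 (−1.05), which starts hexosamine synthesis, Pfkfb3 (−1.46), a regulator of glycolysis, Mlxip (−2.04), a glucose-responsive transcription factor gene, and Slc2a8 (−2.21), a sugar transporter gene, fell.

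None of the 3 relatives of Gltpd2 examined, Gltp, Cptp and Plekha8, rose. Gltp, the glycolipid transfer protein gene, fell from 26.9 ± 1.66 to 17.6 ± 1.83 CPM (log2 fold change −0.61, adjusted p = 0.00209, edgeR), and Cptp, the ceramide 1-phosphate transfer protein gene, from 24.2, 21.1 and 20.9 CPM to 13.1, 7.02 and 5.88 CPM (−1.36, adjusted p = 0.00276). Plekha8, whose protein carries a glycolipid transfer domain, was at 19.8 CPM in shNC and 20.1 CPM in shBmal1 and did not pass. Of 44 listed genes of lipid transfer and sphingolipid metabolism beside Gltpd2, 41 were tested, of which 14 rose, 16 fell and 11 did not pass, with a median of −0.17. The share called, 30 of 41, stood beside 71.3% of all tested genes, and with TPM 7 were higher and 23 lower.

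Among these sphingolipid genes, the 4 falls with the smallest p belonged to lysosomal breakdown, while Galc, the lysosomal galactosylceramidase gene, rose by 1.54 on the log2 scale. Smpd1, the acid sphingomyelinase gene, fell from 307 ± 7.59 to 139 ± 12.3 CPM (log2 fold change −1.15), Arsa by 1.45, Gm2a by 1.31 and Glb1 by 0.69 on the log2 scale. Plekha3 (1.26), whose protein binds Golgi phosphoinositide, the sphingomyelin synthase gene Sgms2 (26.8 to 53.4 CPM) and the glucosylceramidase gene Gba2 (0.86) rose. Gal3st1, a sulfotransferase gene of sulfatide synthesis, had no count in shNC and 31, 69 and 50 counts in shBmal1, at least 195-fold higher at a mean of 4.37 CPM.

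Among the genes linked to CREG1, more fell than rose. Creg2, its paralog, had no count in any library, which allows up to 0.0712 CPM in shNC and 0.323 CPM in shBmal1. Of 17 listed genes beside Creg1, covering its family and the mannose 6-phosphate sorting of lysosomal proteins, 16 were tested, of which 3 rose, 9 fell and 4 did not pass, with a median log2 fold change of −0.55. The share called, 12 of 16, stood beside 71.3% of all tested genes. The split was 5 higher and 8 lower with total counts only, and 2 higher and 12 lower with TPM.

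The receptor that binds CREG1 was among the genes that fell. Igf2r, the gene of the cation-independent mannose 6-phosphate receptor, fell from 589 ± 16.3 to 322 ± 24.4 CPM (log2 fold change −0.87, adjusted p = 1.21e-05, edgeR), while M6pr, the gene of the cation-dependent receptor, did not pass (89.8 and 95.6 CPM). Sort1, the sortilin gene, fell from 331 ± 3.75 to 56.8 ± 4.48 CPM (−2.55), Exoc4 by 1.13 and Gnptab, which makes the mannose 6-phosphate tag, by 1.12 on the log2 scale. Vps26a (26.8 ± 2.90 to 101 ± 3.84 CPM) and Vps35 (0.78), subunits of retromer, rose, as did Gnptg (0.53), which missed the threshold with TPM (adjusted p = 0.0955, limma).

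**Figure D4:**
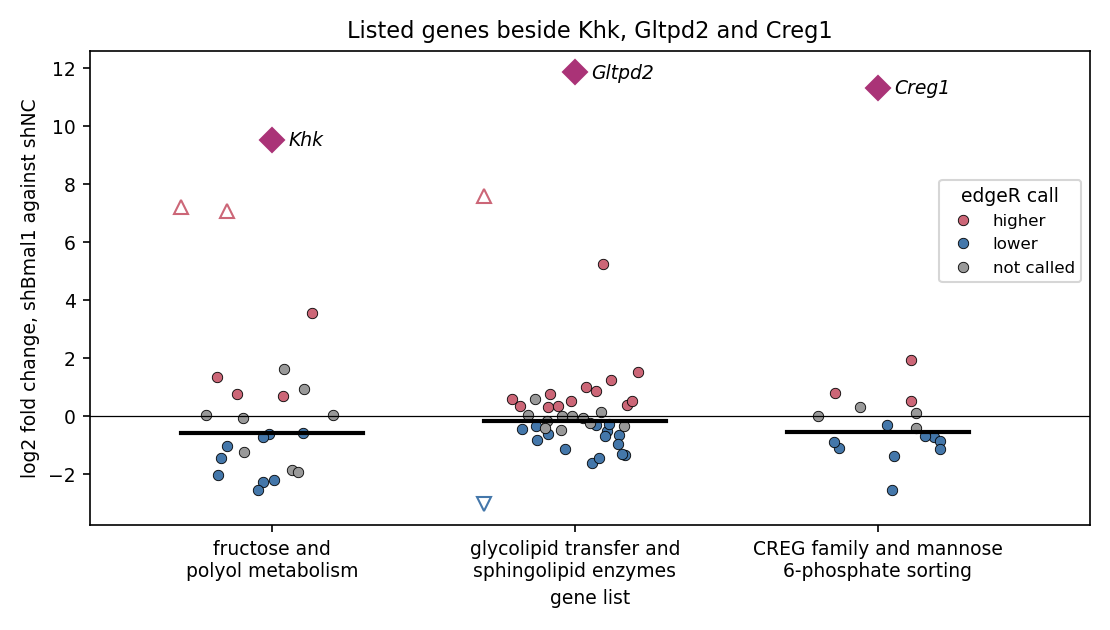
Log2 fold change (shBmal1 against shNC) of tested genes in 3 lists, coloured by edgeR call. Horizontal bars are list medians (−0.58, −0.17 and −0.55), open triangles are bounds for genes with no count in 1 group, and diamonds are Khk, Gltpd2 and Creg1 at 9.53, 11.87 and 11.32.

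Markers of tissues in which Khk is known to be abundant had low summed levels in both groups, though most of those tested rose. Of 14 hepatocyte markers found, 10 were under 1 CPM in both groups and 6 had no count in any library, Hnf4a and Ttr among them. Alb, the albumin gene, had 8 counts in shBmal1 replicate 1 and none elsewhere. The list's summed level was 42.5 to 46.8 CPM in shNC and 47.9 to 61.3 CPM in shBmal1. Most of it came from Tf (44.2 and 43.8 CPM). Of its 5 tested genes, 4 were called higher in shBmal1, against 36.0% of all tested genes. Among those 4 were Apoa1 at 0.987 CPM, Cps1 at 1.43 CPM and Fgb at 2.15 CPM. Of 11 kidney proximal tubule markers 7 were under 1 CPM in both groups, with Slc34a1 and Miox at 0, and the sum was 13.8 to 15.1 CPM in shNC and 40.7 to 44.1 CPM in shBmal1. Of its 4 tested genes, 3 were called higher, against the same 36.0%. Lrp2 and Cubn, endocytic receptor genes, rose to 13.4 and 7.72 CPM and Aqp1 to 18.0 CPM. Of 13 macrophage markers, chosen because CREG1 is lysosomal, 9 were under 1 CPM in both groups, with Tyrobp at 0 and a sum of 33.1 to 44.1 CPM in shNC and 38.9 to 46.2 CPM in shBmal1. Of the 4 macrophage genes tested, 3 were called higher, again against 36.0% of all tested genes. Spi1, Cd68 and Lyz2 rose to 6.89, 2.89 and 2.75 CPM and Cd14 fell from 35.4 to 26.9 CPM. For comparison Creg1, Gltpd2 and Khk stood at 1668 to 4204 CPM in shBmal1. The part of these marker levels in the results was not tested.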

How the data were processed

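RNA-seq of 6 libraries was analysed from 1 deposited table. Per the submitters' processing notes, StringTie 1.3.4d, HISAT2 2.0.4, cutadapt 1.9, DESeq2 and edgeR were used, in no stated role or order; build and counting program were not stated in these sources. The table holds raw counts and FPKM that the authors computed for each gene and library, per the file headers, with an FPKM of 1e-04 for genes with no count, read here as 0. Groups came from the sample titles, and 0 value columns were unmapped.

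Genes passing filterByExpr (minimum count 10, total 15) were scaled by TMM and tested with edgeR 4.0.16 (quasi-likelihood, R 4.3.3, no replicate block), Benjamini-Hochberg adjusted over 14342 genes at 0.05. SE is the log2 fold change divided by the root of the F statistic. CPM are TMM-scaled. The procedure was tested on simulated counts, with far fewer changed genes and smaller changes than in these data. That run therefore does not check folds as large as those of the 3 genes. Libraries of a group differed by more than sampling noise (chi-square over its degrees of freedom, 11.2 to 25.2). Floors of 3 counts cover counting error only, per library for levels and over the group for folds.

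The 3 genes and all lists were chosen with earlier results of these data known. Named genes are the 3, their neighbours within 50 kb, up to 4 genes per list and direction with the smallest p, paralogs and fructose enzymes fixed by name, the 10 largest rises at 100 CPM or more in shBmal1 (without placeholder symbols), the 3 nearest genes to each, and Arntl; some items under this rule are not reported here. LOC108348108, Plk2, the marker genes, Slc2a9, Galc, Plekha8, M6pr and the genes in the last section were named after their values were seen. Alternatives used DESeq2 1.42.0 and limma 3.58.1 on log2 FPKM or TPM.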

Additional observations from a re-analysis of the deposited data

How the results depend on the processing

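Creg1, Gltpd2 and Khk were higher in shBmal1 under all 14 alternatives run for them. The log2 fold change was smaller with a pseudocount of 1, at 10.18 for Creg1 and 10.20 for Gltpd2 on log2(FPKM + 1) and at 10.30 and 10.52 on log2(TPM + 1), by the construction of the scale, since the added 1 is larger than or close to their shNC values. With 1 library left out, values ran from 11.22 to 11.44 for Creg1, 11.55 to 12.33 for Gltpd2 and 9.24 to 10.16 for Khk. Of genes within 50 kb, 7 were called, 6 to 7 with 1 library left out, 5 in a window of 25 kb and 15 in a window of 100 kb, which holds more genes (17 tested). Calls ran from 15 to 16 in the fructose list, 25 to 31 in the sphingolipid list and 12 to 14 in the CREG1 list with 1 library left out, and from 9274 to 10617 over all genes. TPM gave 4065 higher and 6681 lower calls over all genes, against 5167 and 5066. Libraries of the same number showed little shared deviation (correlation of deviations −0.07, 0.02 and 0.03 for the numbers 1, 2 and 3). These values cannot show whether such libraries were made together. With the replicate number as a block, 9415 genes, 6 neighbours, and 16, 26 and 12 list genes were called, and the 3 genes stood at 11.32, 11.90 and 9.58. The lower depth of shBmal1 limits what can be said of its genes under 1 CPM, and depth and group cannot be told apart.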

Other observations

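Below Khk, the next genes by log2 fold change among those of at least 1000 CPM in shBmal1 were Plk2, Uqcrq, Hspa1b and Hsph1. Their values were 5.73, 5.68, 5.66 and 5.43, well short of the 9.53 of Khk. At this level 17 genes had a fitted fold of at least 16 and 4 a fold of at least 64. These next genes are thus not shown to be a separate group. Plk2, a stress-responsive kinase gene, went from 40.9 ± 2.55 to 2172 ± 318 CPM, and Uqcrq, a subunit gene of respiratory complex III, from 63.8 ± 5.15 to 3276 ± 1143 CPM. The heat shock genes Hspa1b and Hsph1 went from 92.0 ± 5.67 to 4644 ± 777 CPM and from 59.1 ± 2.05 to 2542 ± 199.7 CPM. They reached levels like those of Creg1, Gltpd2 and Khk in shBmal1, from shNC levels well above the 2.27 CPM of Khk.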
